A study of Homo sapiens with 6 samples.

Results

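DUSP4, DUSP5, SPRY2 and SPRY4 encode feedback inhibitors of the ERK mitogen-activated protein kinase pathway. They were taken by gene name from the authors' deposited table of changed genes, and all 4 were found among its 426 genes. The table comes from RNA-seq of MKN28, an established human gastric cancer line, which registries treat as derived from MKN74. One group of 3 samples carried a control vector and the other group of 3 carried shVPS35, a short hairpin RNA against VPS35. VPS35 is the core subunit of retromer, which returns membrane proteins from endosomes to the cell surface and the Golgi. The series calls the samples biological replicates, with the number of hairpins or clones behind the shVPS35 samples not given in the sources used here.

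Receptor tyrosine kinases such as the EGF receptor act through RAS, RAF and MEK to phosphorylate ERK, which enters the nucleus and induces target genes. Among those targets are genes whose products switch the pathway off again. DUSP proteins remove the activating phosphates from MAP kinases, and Sprouty proteins act further upstream, between the receptor and RAF. The transcripts of both families are widely read as a record of recent ERK activity, and the level of each inhibitor in turn limits how long a signal lasts.

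The 4 genes lie on separate chromosomes in GENCODE 29 on GRCh38. SPRY2 (ENSG00000136158) occupies 80335976 to 80340951 of chromosome 13 and SPRY4 (ENSG00000187678) occupies 142310427 to 142326455 of chromosome 5, both on the minus strand. The antisense gene SPRY4-AS1 shares 1163 bases with the SPRY4 locus, so reads of the pair cannot be told apart there without strand information. No annotated gene overlaps DUSP4, DUSP5 or SPRY2.

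RefSeq promoter windows on GRCh38.p14, the 250 bases before a transcription start, are shown for the 2 Sprouty genes only. The other inhibitors were left out of this step, so the sequences do not describe the inhibitors as a set. SPRY2 has 3 such windows, and the one farthest upstream is printed (chr13:80341127-80341376, minus strand). The SPRY4 window (chr5:142324248-142324497, minus strand) shares 170 bases with an exon of the noncoding transcript SPRY4-203. Capitals mark matches to CCGGAA, the core bound by ETS factors, and to TGACG, a part of the cyclic AMP response element and not the whole element.
SPRY2: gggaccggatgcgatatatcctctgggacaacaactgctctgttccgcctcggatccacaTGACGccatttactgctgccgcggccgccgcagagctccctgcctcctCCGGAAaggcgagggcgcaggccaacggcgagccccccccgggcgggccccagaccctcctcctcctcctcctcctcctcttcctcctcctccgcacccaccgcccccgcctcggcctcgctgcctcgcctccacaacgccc
SPRY4: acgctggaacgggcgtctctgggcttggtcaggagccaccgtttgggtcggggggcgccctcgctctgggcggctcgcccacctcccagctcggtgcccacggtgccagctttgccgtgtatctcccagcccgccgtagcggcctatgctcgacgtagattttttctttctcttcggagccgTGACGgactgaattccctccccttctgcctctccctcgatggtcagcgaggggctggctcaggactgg
Both windows hold TGACG, 190 bases before the start in SPRY2 and 68 bases before it in SPRY4. CCGGAA is present in the SPRY2 window, 142 bases before the start, and not in the SPRY4 window. Searched on both strands, TGACG occurs in 21.2% and CCGGAA in 14.5% of all 35116 RefSeq windows of this length. The AP-1 site TGANTCA, found in 6.57% of all windows, is in neither. GGGCGG, the GC box, is in both, as in 42.6% of all windows, and none of these matches overlap. These matches describe letters in a window and were chosen with the expression results known.

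Each value below is an expression value per gene and sample as the authors deposited it, in a table that states no unit. Read depth is unknown, so precision was judged from the replicates alone. VPS35 was 65.3 ± 1.67 in the vector samples and 13.4 ± 1.97 in the shVPS35 samples (SD, n = 3 per group), in the direction the labels state. The samples are bulk RNA, in which fewer cells with a transcript and less of it per cell cannot be told apart. Of 16 markers of other cell types, 4 were listed (CD68, DCN, CDH5 and LUM). They did not move one way. CD68, chosen as a macrophage marker, kept 30.5% of its vector level and fell. DCN, chosen as a fibroblast marker, rose from 1.48 ± 0.485 to 4.19 ± 1.22 (SD, n = 3 per group). The samples are of a cell line, and these values do not show that other cells were present. CDH5 and LUM had lower means, at 55.8% and 48.0% of vector, and lay below the filter. The summed value of the 4, mostly CD68, was 58.0 to 61.3 in the vector and 20.8 to 24.2 in the shVPS35 samples, with no value at 0, and their part in the results was not tested. None of 7 epithelial markers was listed, and a table of changed genes does not show whether they were expressed.

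All 4 inhibitors were lower in the shVPS35 cells, and in each the 3 vector samples lay above the 3 shVPS35 samples. Relative to the vector mean, 8.37% of DUSP4, 31.9% of DUSP5, 46.5% of SPRY2 and 13.1% of SPRY4 was left. Across the 236 listed genes that fell, the median share left was 35.9%. The authors' listing (adjusted p under 0.05, log2 fold change beyond 1 in either direction) held 1.47% of the 16063 genes tested as lower. The vector samples lay wholly above the shVPS35 samples in 217 of 426 listed genes, or 50.9%. That base includes the 190 genes that rose as well as the 236 that fell. Since the inhibitors were taken from that list, their common direction and their separation are a description.

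**Figure D1:**
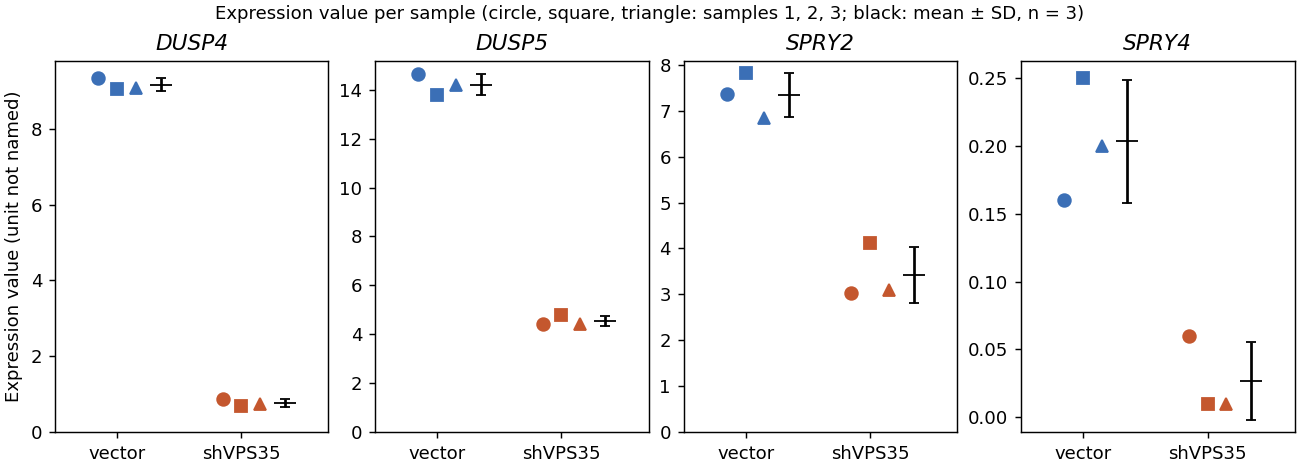
Expression value (vertical axes, unit not named in the deposited table, 1 scale per gene) of DUSP4, DUSP5, SPRY2 and SPRY4 in each vector (blue) and shVPS35 (orange) sample, with the mean ± SD in black (n = 3 per group). In every panel the lowest vector sample is above the highest shVPS35 sample, and the SPRY4 panel spans values of 0.25 and below.

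DUSP4, also called MKP-2, is a phosphatase of the nucleus that acts on ERK and on the stress kinase JNK. The gene (ENSG00000120875) spans positions 29333064 to 29350668 of chromosome 8 on the minus strand. Vector samples 1, 2 and 3 had expression values of 9.35, 9.06 and 9.07, and shVPS35 samples 1, 2 and 3 had 0.87, 0.68 and 0.75. Every shVPS35 sample was therefore below 1 while the vector samples lay close together above 9. The mean was 11.9-fold lower, from 9.16 ± 0.165 to 0.767 ± 0.0961 (SD, n = 3 per group). As log2(value + 1), DUSP4 differed by -2.53 ± 0.11 between the groups (SE; limma adjusted p = 2.2e-07). This scale understates the fall of a gene that ends below 1, and with a pseudocount of 0.1 the log2 difference was -3.42. Of the 85 genes that fell from a vector mean of 5 or more, DUSP4 kept the second smallest share of its vector level. Over all 236 listed genes that fell, it stood at place 13 by the authors' log2 fold change. By p in the authors' deposited table it ranked 19 of all 16063 genes.

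DUSP5 is a nuclear phosphatase that acts on ERK alone among the MAP kinases. The gene (ENSG00000138166) spans 110497838 to 110511544 of chromosome 10 on the plus strand. Expression values of 14.66, 13.79 and 14.18 in vector cells stood against 4.40, 4.77 and 4.43 in shVPS35 cells. The replicates were close in both groups, with coefficients of variation of 3.07% in vector and 4.53% in shVPS35 cells, beside medians of 5.53% and 6.41% over listed genes with both means of 5 or more. The mean was 3.13-fold lower, from 14.2 ± 0.436 to 4.53 ± 0.206 (SD, n = 3 per group). The log2(value + 1) difference was -1.46 ± 0.08 (SE; limma adjusted p = 9.0e-07). By share of the vector level left, DUSP5 stood at place 28 of the 85 genes, and by p in the authors' deposited table at rank 118. The authors' deposited table gives DUSP5 a log2 fold change of -1.44, where the log2 ratio of its own mean values is -1.65.

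SPRY2 encodes a Sprouty protein that binds the adaptor GRB2 and the ubiquitin ligase CBL. In vector samples 1 to 3 its expression values were 7.37, 7.82 and 6.85, and in shVPS35 samples 1 to 3 they were 3.02, 4.12 and 3.10. shVPS35 sample 2 stood above the other two, yet below every vector sample. The mean was 2.15-fold lower, from 7.35 ± 0.485 to 3.41 ± 0.613 (SD, n = 3 per group). The log2(value + 1) difference was -0.93 ± 0.13 (SE; limma adjusted p = 1.5e-04). Without shVPS35 sample 2, 41.7% of the vector level was left in place of 46.5%. SPRY2 was the inhibitor nearest to the limit of the list, with a log2 fold change of -1.13 and rank 796 by p in the authors' deposited table.

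SPRY4 encodes a Sprouty protein that restrains RAS and RAF activation, and here its transcript was close to the lower end of the table. Vector samples 1 to 3 had expression values of 0.16, 0.25 and 0.20, and shVPS35 samples 1 to 3 had 0.06, 0.01 and 0.01. Among the 236 genes that fell, only 3 had a lower vector mean. The value 0.01 is the smallest above 0 that 2 decimals can show, so the share left is poorly fixed. It was 13.1% over all samples and 4.92% without shVPS35 sample 1. The mean went from 0.203 ± 0.0451 to 0.0267 ± 0.0289 (SD, n = 3 per group), with an SD above the mean in shVPS35 cells. SPRY4 was the 1 inhibitor that did not reach a value of 1 in 3 samples and so was not among the 292 genes of the limma fit. In a fit without that filter its difference on the log2(value + 1) scale was -0.23 ± 0.05 (SE; limma adjusted p = 0.0032), and with a pseudocount of 0.1 it was -1.27. The authors' deposited table gives SPRY4 a log2 fold change of -2.81 and an adjusted p of 0.0050, at rank 2864 by p.

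The limma adjusted p-values set each difference against the spread between samples and are no independent evidence, because the fit covers only genes already listed for differing in these samples. All 292 genes tested, 100%, passed at 0.05, and 54.8% of them were lower in shVPS35 cells. Without the filter 52.8% of 426 genes passed as lower. DUSP4 passed the filter only through its vector samples. Tested singly, each of the 4 inhibitors gave a 2-sided exact permutation p of 0.1, the smallest possible with 3 samples per group.

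**Figure D2:**
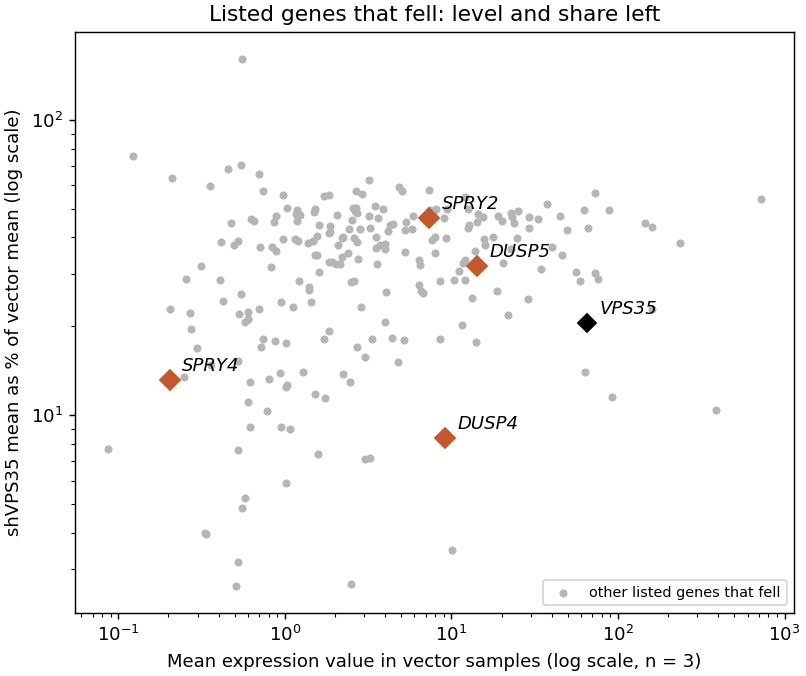
Share of the vector mean left in shVPS35 cells (vertical, log scale) against the mean expression value in the vector samples (horizontal, log scale) for 235 listed genes that fell and have both means above 0. DUSP4 lies near the bottom among genes of like level at 8.37%, DUSP5 and SPRY2 lie among them at 31.9% and 46.5%, and SPRY4 sits at the low end with a vector mean of 0.203.

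The inhibitors did not fall by the same factor, which being listed does not fix. Ratios between their values within a sample show this without reference to the other genes. The ratio of DUSP4 to DUSP5 was 0.638, 0.657 and 0.640 in vector cells, against 0.198, 0.143 and 0.169 in shVPS35 cells. DUSP4 thus lost more than DUSP5 in every shVPS35 sample, and the groups did not overlap. On the log2(value + 1) scale the ratio differed by -1.07, and by -1.94 without a pseudocount. The ratio of DUSP4 to SPRY2 was 1.27, 1.16 and 1.32 in vector cells, against 0.288, 0.165 and 0.242 in shVPS35 cells. That ratio differed by -1.60 on the log2(value + 1) scale and by -2.47 without a pseudocount.

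DUSP5 in turn fell further than SPRY2, by a smaller margin. Their ratio was 1.99, 1.76 and 2.07 in vector cells, against 1.46, 1.16 and 1.43 in shVPS35 cells, which is -0.53 as log2(value + 1). For each of the 6 pairs the 2-sided exact permutation test on the log2(value + 1) scale gave p = 0.1 (adjusted p = 0.1 over the 6 pairs), the smallest that 3 against 3 samples allow. The order DUSP4, DUSP5, SPRY2 from the largest to the smallest fall was the same with every pseudocount tried and with any 1 sample left out. SPRY4 could not be placed in this order, and the p of its 3 pairs depended on the pseudocount. With 0.1 the exact permutation adjusted p was 0.36 for DUSP5 over SPRY4 and 0.60 for SPRY2 over SPRY4, with overlapping groups. Without a pseudocount it was 1.0 for DUSP4 over SPRY4 and 0.24 for DUSP5 over SPRY4, again with overlap. It had the smallest fall of the 4 on the log2(value + 1) scale, and without a pseudocount its log2 difference of -3.46 was close to the -3.59 of DUSP4.

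**Figure D3:**
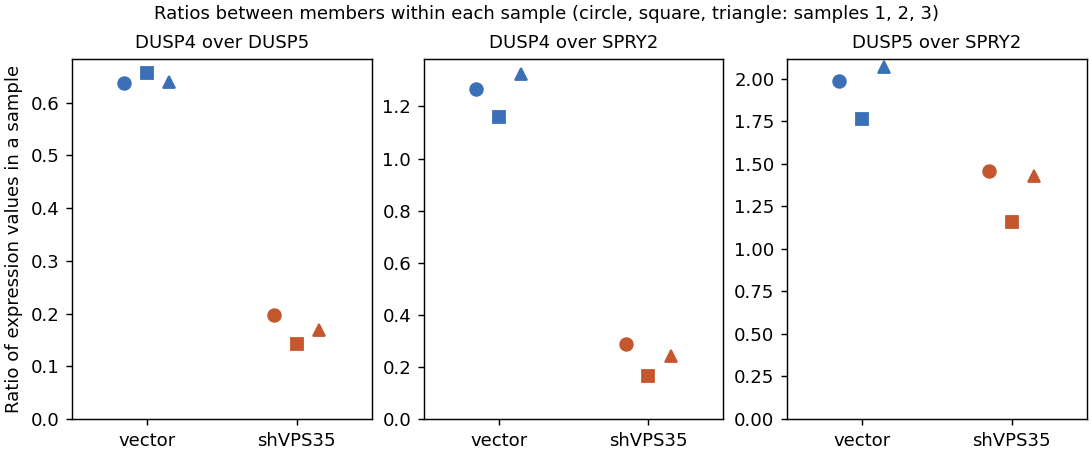
Ratio of the expression values of 2 genes within each sample (vertical axes, starting at 0) for DUSP4 over DUSP5, DUSP4 over SPRY2 and DUSP5 over SPRY2 in vector (blue) and shVPS35 (orange) samples. All 3 ratios are lower in every shVPS35 sample than in any vector sample, and both ratios with DUSP4 are below 0.3 there.

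The shVPS35 samples also differed among themselves. Sample 2 kept the most VPS35, with an expression value of 15.6 beside 12.9 and 11.8 in samples 1 and 3. It also had the highest value of SPRY2 (4.12) and of DUSP5 (4.77) and the lowest of DUSP4 (0.68). With 3 samples no relation between VPS35 and the inhibitors was tested. For DUSP4 and DUSP5, the distance between the groups was many times the spread among these samples.

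Other inhibitors of receptor and ERK signalling were mostly outside the table. Of 11 DUSP genes on a list of MAP kinase phosphatases, DUSP4 and DUSP5 were listed and 9 were not, DUSP6 among them, the cytoplasmic phosphatase of ERK. Of 7 Sprouty and SPRED genes, SPRY2 and SPRY4 were listed and 5 were not. None of 18 further inhibitors, such as ERRFI1, LRIG1, CBL and NF1, was listed. In all, 4 of 36 inhibitor genes were listed, and all 4 fell, beside the 1.47% of all tested genes listed as lower. The 4 are the genes that were chosen for description, so nothing is read from this count. Genes that the table leaves out are not analysed here.

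Among EGF receptor family ligand genes, 6 of 11 were listed and all 6 had lower means, beside 1.47% of all tested genes listed as lower. The 5 that passed the filter were lower in the limma fit, in which every gene passed the threshold. EREG, which encodes epiregulin, kept 30.8% of its vector level, EPGN 21.8%, TGFA 28.6%, NRG1 32.3% and AREG, which encodes amphiregulin, 46.6%. EGF itself, at 0.407 ± 0.170 and 0.117 ± 0.0737 (SD, n = 3 per group), was below the filter. Of 20 receptor tyrosine kinase genes EPHB2 alone was listed, with overlapping groups at 0.543 ± 0.168 and 0.383 ± 0.321. None of 20 genes of the cascade from GRB2 and RAS to ERK was listed. Of 8 genes of FGF and MET ligands and their carriers, FGFBP1, which encodes an FGF-binding protein, rose from 2.09 ± 0.201 to 7.31 ± 1.04.

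Of 24 other transcripts that ERK induces, 7 were listed and all 7 fell, beside 1.47% of all tested genes listed as lower. All 7 passed the filter and so, like each of the 292 genes fitted, the limma threshold. The median share left was 32.5%, next to 31.9% for DUSP5. PHLDA1 kept 17.0% and CCND1, which encodes cyclin D1, 28.6%. The early response gene IER3 kept 30.4%, the ETS factor genes ETV5 and ETV4 kept 39.8% and 45.1%, and FOSL1, which encodes the AP-1 subunit FRA1, kept 46.9%. DUSP4 therefore kept a smaller share than each of these 6, and SPRY2 lay near ETV4 and FOSL1. These lists were chosen with earlier results of the data known, so their counts are a description.

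**Figure D4:**
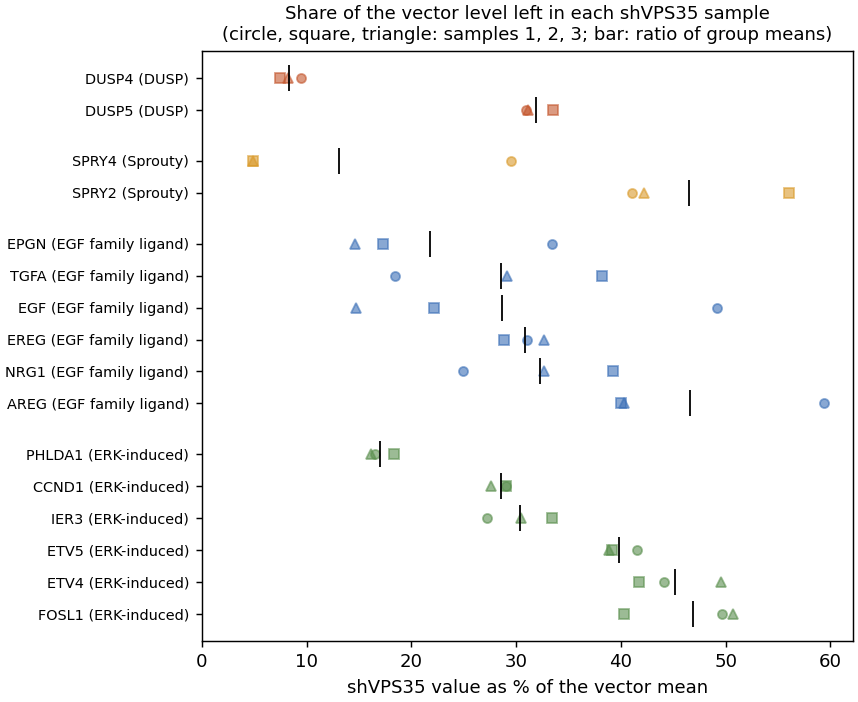
Expression value of each shVPS35 sample as a percentage of the vector mean (horizontal, starting at 0) for the listed DUSP and Sprouty inhibitors, EGF receptor family ligands and 6 ERK-induced genes. Bars mark the ratio of the group means, with DUSP4 at 8.37% and SPRY2 at 46.5%, and SPRY4 and EGF show the widest scatter among the inhibitors and ligands.

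Genes with the most similar profile were found by the Euclidean distance over the 6 samples, on the log2(value + 1) scale relative to the vector mean, among 289 other genes that passed the filter. For DUSP4 these were F3, the gene of tissue factor (distance 0.456), VPS35 itself (0.653) and TGM2, a transglutaminase gene (0.744). Such a distance largely reflects the size of the fall and does not show that genes vary together. Within the shVPS35 samples, VPS35 was highest in sample 2 (15.6), where DUSP4 was lowest (0.68). Nearest to DUSP5 were CDKN1A, which encodes the cell cycle inhibitor p21 (0.191), TBC1D2 (0.200) and CYSRT1 (0.240). Nearest to SPRY2 were GPR1 (0.184), CRYBG1 (0.187) and NTN4, which encodes the matrix protein netrin 4 (0.194). The nearest to SPRY4 were farther than those of SPRY2, led by LINC01271 (0.542), FCMR (0.583) and FRMD6 (0.590), since on this scale its fall was smaller than that of genes which passed the filter. No inhibitor was among the nearest genes of another, because the others were left out of the search.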

How the data were processed

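RNA-seq values of 6 MKN28 samples, 3 per group, were read from 1 deposited table, and groups were taken from the sample titles. Per the labels' protocols, RNA was extracted with TRIzol and treated with DNase I. The submitters' processing notes name fastp, HISAT, RSEM and GRCh38.p13. Versions, roles, strandedness and the authors' test were not given in the sources used here. Per gene and sample, the deposited table holds an expression signal with 2 decimals. It also holds the authors' ratio (fold) of shVPS35 over vector, its log2, and a p-value and adjusted p-value per gene, per the file headers. From p and adjusted p, 16063 genes were found to have been tested, with a whole rank within 0.01 for 387 of 422 genes.

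Values were tested as log2(value + 1) with limma 3.58.1 (trend and robust, R 4.3.3, statmod 1.5.0) in genes reaching 1 in at least 3 samples, and p-values were adjusted by Benjamini and Hochberg over 292 genes at 0.05. The test was checked on simulated data that held changed and unchanged genes. That check does not bear on a table of genes already listed as changed. Ratios between genes used exact permutation tests (scipy 1.17.1). Gene positions are from GENCODE 29 and promoter windows from RefSeq on GRCh38.p14. The genes described were the 4 inhibitors, up to 6 listed genes per pathway list, and the 3 nearest profiles per inhibitor, while VPS35 served as the check. The genes, lists and tests were chosen with earlier results of these data known. Alternatives were other pseudocounts, filters, scaling and variance estimates, leaving out each sample, and a replicate block. If the samples share a culture, p-values measure technical spread alone.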

Additional observations from a re-analysis of the deposited data

How the results depend on the processing

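All 4 inhibitors stayed lower in shVPS35 cells, with a limma adjusted p below 0.05, under each pseudocount, filter, scaling and variance estimate that gave a fit and with any 1 sample left out. The largest adjusted p-values there were 4.1e-06 for DUSP4, 1.5e-05 for DUSP5, 9.4e-04 for SPRY2 and 0.018 for SPRY4. Since all 292 genes of the main fit, 100%, passed as well, these calls are no independent evidence. Scaling each sample to the same sum over listed genes changed no call or direction of an inhibitor. The median log2 difference of the 4 was -1.19, beside -0.84 over all listed genes that fell. It became -1.45 with a pseudocount of 0.1, -0.78 with 5, and -2.55 with none, an alternative added after the data were seen. It was -1.46 with a filter of 5, which leaves 3 of the 4. All 3 passed that filter only through their vector samples, so being lower under it was fixed in part by the filter. That filter tested 141 genes and called 78 lower and 62 higher, against 160 and 132, since fewer genes were tested. Without a filter 225 were lower and 183 higher. The ratio of SPRY2 to SPRY4 changed from -0.70 to 0.18 with a pseudocount of 0.1 and to 2.34 with none, and that of DUSP5 to SPRY4 from -1.23 to 1.81 with none. Only ratios with SPRY4, whose values are all 0.25 or less, changed sign.

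Leaving out 1 sample gave log2 differences from -2.57 to -2.49 for DUSP4, -1.49 to -1.44 for DUSP5, -1.04 to -0.86 for SPRY2 and -0.25 to -0.20 for SPRY4, and medians from -1.26 to -1.15. The ratios ran from -1.13 to -1.0 for DUSP4 to DUSP5, -1.70 to -1.45 for DUSP4 to SPRY2 and -0.59 to -0.45 for DUSP5 to SPRY2. In these fits 154 to 157 genes were lower and 130 to 132 higher. Samples with the same replicate number did not deviate together (r of -0.06, -0.09 and 0.03 across genes), so the numbers do not pair them. With the replicate number as a block, 159 genes were lower and 132 higher, and all 4 inhibitors were still called (adjusted p from 3.0e-05 to 0.014).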

Other observations

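The log2 fold change of DUSP5 in the authors' deposited table (-1.44) was smaller in size than the log2 ratio of its mean values (-1.65), a gap of -0.21. Over 198 listed genes with both means of 1 or more, the median gap was 0.03, with quartiles of -0.02 and 0.09, and 14 genes had a gap as low as that of DUSP5 or lower. DUSP4 and SPRY2 had gaps of 0.03 and 0.02. The basis of the authors' ratio was not given in the sources used here, and the cause was not tested.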
